A study of Homo sapiens with 10 samples.

Results

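The 10 genes described here encode proteins that cut pre-mRNA at its 3′ end and add the poly(A) tail: NUDT21, CPSF1, CPSF2, CPSF3, CPSF6, CPSF7, PCF11, FIP1L1, WDR33 and PAPOLA. They were chosen by name for their function and were found through the transcript identifiers of the deposited tables, and they are 10 of the 31015 genes that had at least 1 counted interval. The data are SLAM-seq libraries of 22RV1, an established cell line of castration-resistant prostate cancer. In SLAM-seq, cells receive 4-thiouridine (4sU), which new transcripts take up and which, after alkylation with iodoacetamide, shows as C where the genome has T. Reads with such a T>C conversion are taken as RNA made during the label, here the last 10 min of the treatment, although conversions also have other sources. Nascent RNA below means T>C reads, total RNA means all reads, and the labelled share is the percentage of a gene's reads with a conversion.

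The 5 groups had 2 libraries each. Control cells were untreated. The other groups received SRPIN340 at 20 μM, an inhibitor of the splicing kinase SRPK1, Endovion at 50 μM, another SRPK1 inhibitor, THZ531, an inhibitor of the transcription kinase CDK12, or THZ531 together with Endovion (the combination), each for 4 h. The dose of THZ531 is 100 nM in the methods but 150 nM in the series' own text. All groups, controls included, received 4sU, and no library without 4sU was analysed. Each nascent value and labelled share therefore includes conversions that did not come from the label, and their part was not measured. The labels do not say whether the 2 libraries of a group came from separate cultures, so the p-values measure only the spread between these libraries, which may be technical.

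The libraries had 35517462 to 53592904 mapped reads. Genes held 19315403 to 30047692 of them, of which 1011598 to 1576106 (5.04% to 5.70%) carried a conversion. Replicates correlated at 0.908 to 0.932 in nascent and at 0.9747 to 0.983 in total RNA, and differed by more than sampling noise. Libraries of different groups correlated at 0.838 to 0.930 and at 0.926 to 0.985, so that some pairs across groups were as close as replicates. Of the prostate markers reported here, KRT18 lay between 348 and 472 total CPM, the scaled count of reads that edgeR gives, whereas TMPRSS2 and KLK3 were low, at no more than 2.79 and 8.09 CPM. The leukocyte, fibroblast and endothelial markers CD3E, COL1A2 and CDH5 had 0 reads in all 10 libraries, and the highest of the others was COL1A1 at no more than 3.51 CPM.

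Most human mRNAs end where the cleavage and polyadenylation specificity factor (CPSF) finds the hexamer AAUAAA or a close variant, cuts downstream of it, and lets poly(A) polymerase build the tail. Cleavage factor I binds UGUA upstream of the cut and helps choose between alternative sites, and cleavage factor II, with PCF11, links cleavage to termination of transcription by RNA polymerase II. Many genes carry further sites inside introns, and use of such a site yields a shorter mRNA that lacks the last exons. CDK12 phosphorylates the tail of RNA polymerase II during elongation, and SRPK1 phosphorylates SR splicing factors.

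At the level of genes, the largest departures from control were a rise of NUDT21, in nascent RNA of all 4 treatments, and a fall of PCF11 in both groups with THZ531. Of the 10 genes, 9 passed the low-count filter for nascent RNA and 10 for total RNA. In nascent RNA, edgeR's quasi-likelihood test at a Benjamini-Hochberg adjusted p under 0.05 called 1 gene up and 0 down with SRPIN340, where 0.845% of the 9946 genes tested were called up and 0.191% down. With Endovion it called 1 up and 0 down, against 2.04% and 0.623% of all genes. With THZ531 it called 1 up and 2 down, against 3.86% and 3.60%, and with the combination 2 up and 1 down, against 4.61% and 3.51%. The median log2 fold change of the genes tested was -0.06, 0.15, 0.17 and 0.36 in these 4 comparisons, and that of all genes lay between -0.02 and -0.01. All 4 comparisons share the control libraries.

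In total RNA, no gene was called with SRPIN340 (3 had an unadjusted p under 0.05, and DESeq2 called 1, NUDT21), where 1.82% of 14689 genes were called up and 0.143% down. With Endovion 3 were called up and 0 down, against 8.90% and 2.54% of all genes. With THZ531 2 were up and 2 down, against 16.6% and 14.1%, and with the combination 3 were up and 2 down, against 16.6% and 12.4%. The median log2 fold change of the 10 genes was 0.09, 0.26, 0.03 and 0.06. By the study's own rule for nascent RNA, an unadjusted p under 0.05 together with a log2 change of 1 or more in size, NUDT21 was called up in every treatment and PCF11 was called down with THZ531 and the combination. No other gene of the list met it against control, and CPSF2 missed this rule with THZ531 because its log2 change was just under 1 in size. All genes called by that rule were 4.66% with SRPIN340, 6.49% with Endovion, 12% with THZ531 and 11.3% with the combination.

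**Figure D1:**
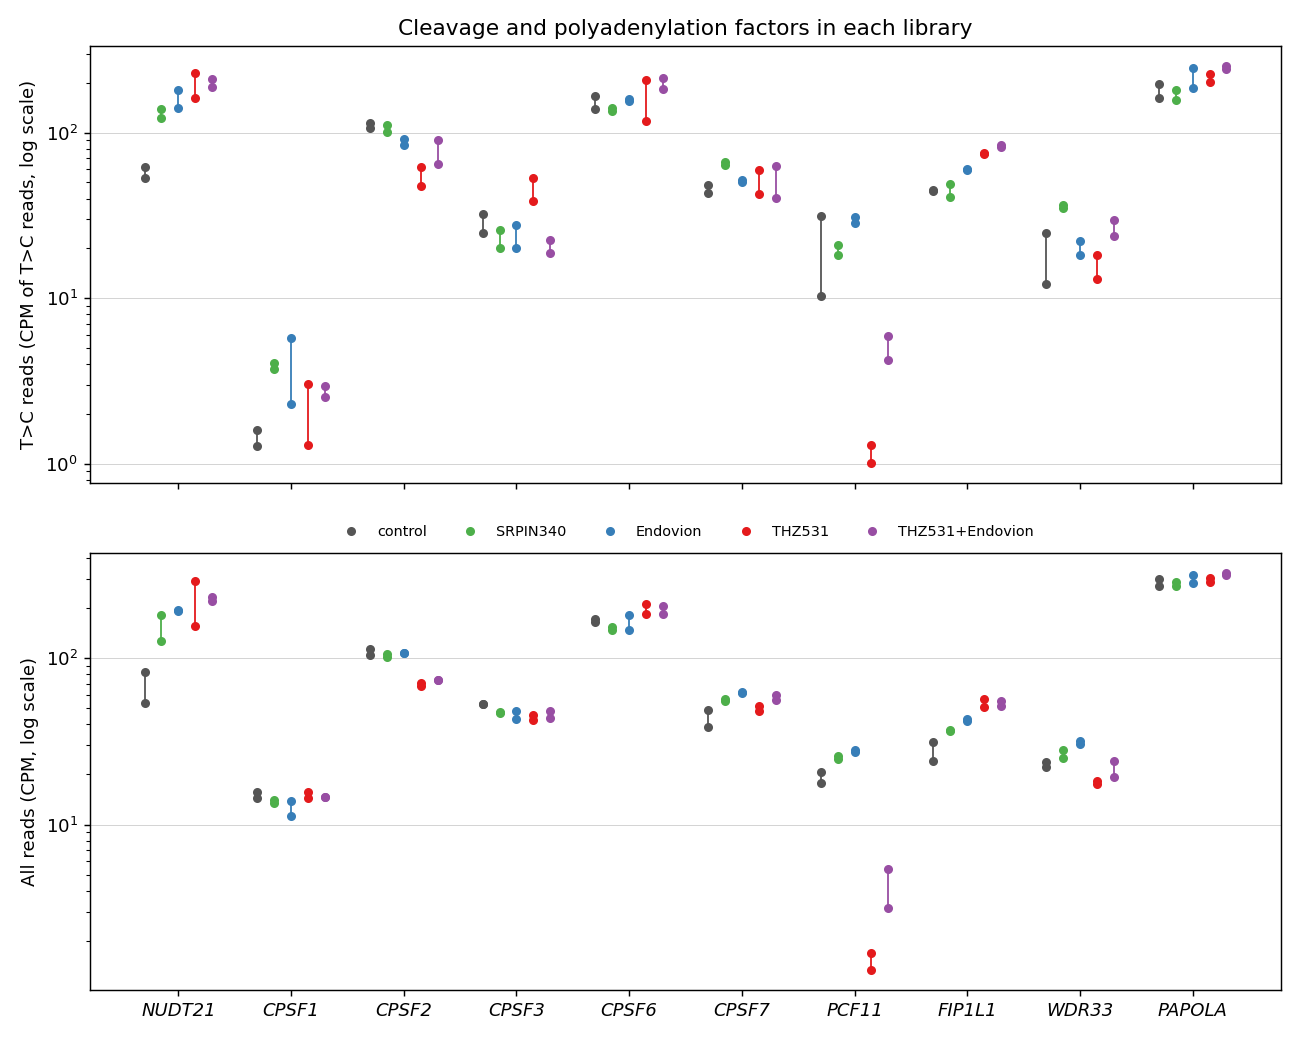
Nascent RNA (T>C reads, CPM) and total RNA (all reads, CPM) of the 10 genes in each of the 10 libraries, on log axes, with 1 point per library and the groups in the order control, SRPIN340, Endovion, THZ531, combination. All 8 treated libraries of NUDT21 lie above both control libraries, and the THZ531 libraries of PCF11 lie at 1.30 and 1.02 nascent CPM.

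Cleavage factor I was measured first. NUDT21 encodes its smaller subunit, which binds the UGUA motif, and lies on the minus strand of chromosome 16 (hg38, chr16:56429133-56452199). All its reads fell in 1 interval, the last exon of 3579 bases. The end of that interval is printed because it holds the letters AATAAA in its last 50 bases, as did 42.4% of 24998 intervals of the genes tested. Whether this hexamer acts as a polyadenylation signal was not tested. It is in capitals, and the window is read 5′ to 3′ on the transcript strand (chr16:56429133-56429160).
NUDT21: atttcAATAAAaaatatttgaaagagaa

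Nascent NUDT21 was 62.4 and 53.0 CPM in the control libraries, 122 and 139.6 with SRPIN340, 141 and 182 with Endovion, 162 and 228 with THZ531, and 210.1 and 188 with the combination. Each treated library was above both controls. Among the treatments SRPIN340 was lowest, without overlap, the ranges of Endovion and THZ531 overlapped, and the combination lay within the range of THZ531. The log2 fold change over control was 1.17 ± 0.22 (SE) with SRPIN340 (adjusted p = 0.00102), 1.47 ± 0.22 with Endovion (adjusted p = 9.37e-06), 1.74 ± 0.22 with THZ531 (adjusted p = 1.29e-07) and 1.78 ± 0.22 with the combination (adjusted p = 6.44e-08; edgeR, n = 2 libraries per group). NUDT21 thus rose between 2.26-fold and 3.44-fold. The rise with SRPIN340 passed the threshold narrowly across libraries: without control replicate 2 the adjusted p was 0.0877, and without SRPIN340 replicate 2 it was 0.0624.

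Total NUDT21 was 82.7 and 53.8 CPM in control cells, 127 and 183 with SRPIN340, 192 and 195 with Endovion, 156 and 289.7 with THZ531, and 221 and 233 with the combination. Again no treated library overlapped the controls. The log2 fold change was 1.501 ± 0.35 with Endovion (adjusted p = 0.0474), 1.70 ± 0.35 with THZ531 (adjusted p = 0.0145) and 1.73 ± 0.35 with the combination (adjusted p = 0.0145), whereas with SRPIN340 it was 1.18 ± 0.35 (adjusted p = 0.154). Without control replicate 2 all 3 calls were lost, with an adjusted p of 0.288 for Endovion, 0.0968 for THZ531 and 0.101 for the combination, at log2 fold changes of 1.18, 1.39 and 1.41. With Endovion the call was also lost without control replicate 1 and without either library of Endovion or the combination (adjusted p = 0.0508 to 0.179), and with the combination it was lost without either of its own libraries (adjusted p = 0.0725 and 0.0752). With SRPIN340 total NUDT21 was called without either THZ531 library (adjusted p = 0.0307 and 0.0288), and total CPSF7 and FIP1L1 were called without control replicate 1 (adjusted p = 0.0292 and 0.0234). In bulk RNA, fewer cells that express a gene and less RNA per cell cannot be told apart.

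The combination did not add the log2 changes of THZ531 and Endovion in NUDT21. The interaction term was -1.43 ± 0.30 in nascent RNA (adjusted p = 0.0186), where 0.282% of all genes were called down, and the level with the combination differed from that with THZ531 by 0.04 ± 0.21 (adjusted p = 0.985) and from that with Endovion by 0.31 ± 0.21 (adjusted p = 0.666). The interaction lost its call without control replicate 2 (-1.32, adjusted p = 0.213), without THZ531 replicate 2 (-1.18, adjusted p = 0.304) and without any 1 library of Endovion or the combination (adjusted p = 0.0641 to 0.144). The other 8 genes tested lay between -0.92 ± 0.59 for CPSF3 and 1.47 ± 1.19 for PCF11. In total RNA the interaction of NUDT21 was -1.47 ± 0.49 (adjusted p = 0.322), and none of the 10 genes was called there (3 at an unadjusted p under 0.05; 0.00681% of all genes were called), although NUDT21 was called without THZ531 replicate 1 (adjusted p = 0.03) and FIP1L1 without control replicate 1 (-0.82, adjusted p = 0.0258).

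CPSF6 and CPSF7 encode the larger subunits of cleavage factor I, of which each complex holds one kind or the other. CPSF6 had 167 and 139.6 nascent CPM in control cells, 141 and 136 with SRPIN340, 154 and 161 with Endovion, 117 and 207 with THZ531, and 213 and 183 with the combination, so that the THZ531 libraries enclosed the control range. None of its comparisons with control passed the test in nascent RNA, with log2 fold changes from -0.15 to 0.36 (adjusted p of at least 0.315), or in total RNA, with log2 fold changes from -0.16 to 0.24. Total CPSF6 was 185 and 212 CPM with THZ531 and 148 and 154 with SRPIN340, without overlap, and the difference of 0.40 ± 0.12 on the log2 scale passed the test (adjusted p = 0.0285) but was lost without either SRPIN340 library (adjusted p = 0.194 and 0.106), without THZ531 replicate 2 (adjusted p = 0.232) and with the plain sum of overlapping intervals (adjusted p = 0.0655).

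Total CPSF7 was 48.9 and 38.7 CPM in control cells, 55.1 and 57.0 with SRPIN340, 62.2 and 61.8 with Endovion, 48.3 and 51.8 with THZ531, and 55.8 and 59.7 with the combination. The 2 controls were farther apart than the libraries of any treatment. CPSF7 rose with Endovion (log2 fold change 0.50 ± 0.13, adjusted p = 0.0248) and with the combination (0.40 ± 0.13, adjusted p = 0.0343), and without control replicate 2 both values were smaller and not called (0.29, adjusted p = 0.33, and 0.19, adjusted p = 0.392). The call was also lost without either library of the treatment itself (adjusted p = 0.112 and 0.124 for Endovion, 0.117 and 0.155 for the combination). That with Endovion was lost too without combination replicate 1 (adjusted p = 0.0507), and that with the combination without any 1 library of SRPIN340 or THZ531 (adjusted p = 0.0534 to 0.0599) and with the fit on the 2 groups alone (0.36, adjusted p = 0.109). Nascent CPSF7 passed no test, and with SRPIN340, where both libraries (66.3 and 63.8 CPM) lay above the controls (48.3 and 43.3 CPM), the log2 fold change was 0.50 ± 0.30 (adjusted p = 0.601).

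The CPSF complex was measured next. CPSF3 encodes its endonuclease, which cuts the pre-mRNA. The counted interval of CPSF3 had only 84 bases with 30 T positions, and it held 21 to 82 T>C reads per library. Nascent CPSF3 was 32.2 and 24.9 CPM in control cells, 25.7 and 20.0 with SRPIN340, 27.6 and 20.2 with Endovion, 53.4 and 38.6 with THZ531, and 18.6 and 22.6 with the combination. The THZ531 libraries were the highest and lay above all other libraries, and the combination lay below both controls. Neither difference passed the test over all genes, with a log2 fold change of 0.69 ± 0.39 for THZ531 (adjusted p = 0.312) and of -1.17 ± 0.41 for the combination against THZ531 (adjusted p = 0.339). Total CPSF3 lay between 42.6 and 53.3 CPM in the 10 libraries, both controls at the upper end, with log2 fold changes from -0.27 to -0.17 and no call.

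CPSF2 encodes the inactive partner of the endonuclease. Its reads were counted in 1 interval, at the gene's end. RNA that ended upstream of it would not enter these values, and a shift to such an end was not tested. Nascent CPSF2 was 114.6 and 107 CPM in control cells, 101 and 111 with SRPIN340, 92.1 and 83.7 with Endovion, 61.8 and 47.8 with THZ531, and 89.8 and 64.9 with the combination. The THZ531 libraries were the lowest and did not overlap any other group. CPSF2 fell with THZ531 (log2 fold change -0.999 ± 0.26, adjusted p = 0.00825), whereas the combination gave -0.51 ± 0.25 (adjusted p = 0.226). Without THZ531 replicate 2 the change was -0.84 (adjusted p = 0.154), and without control replicate 1 it was -0.93 (adjusted p = 0.0506).

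Total CPSF2 was 104 and 114 CPM in control cells, 67.9 and 70.4 with THZ531, and 74.1 and 73.6 with the combination, against 101 to 107 in the 4 libraries of SRPIN340 and Endovion. All 4 libraries with THZ531 were thus below the other 6. CPSF2 fell with THZ531 (-0.66 ± 0.11, adjusted p = 0.000456) and with the combination (-0.56 ± 0.11, adjusted p = 0.00154), and these calls held when any 1 library was left out. With SRPIN340 and Endovion the log2 fold change was -0.07 and -0.03.

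FIP1L1 encodes the CPSF subunit that binds U-rich RNA and poly(A) polymerase. Total FIP1L1 was 31.2 and 24.1 CPM in control cells, 36.9 and 36.2 with SRPIN340, 43.0 and 41.6 with Endovion, 50.8 and 56.9 with THZ531, and 51.9 and 55.3 with the combination. Every treated library was above both controls, and the libraries with THZ531 were above those with either SRPK1 inhibitor alone. FIP1L1 rose with Endovion (0.61 ± 0.14, adjusted p = 0.0133), with THZ531 (0.96 ± 0.14, adjusted p = 0.000187) and with the combination (0.95 ± 0.14, adjusted p = 0.000226), and with SRPIN340 the value was 0.40 ± 0.14 (adjusted p = 0.14). The call with Endovion was lost without control replicate 2 (0.40, adjusted p = 0.221) or without either Endovion library (adjusted p = 0.09 and 0.0671), and those with THZ531 and the combination held when any 1 library was left out.

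Nascent FIP1L1 was 45.1 and 44.1 CPM in control cells, 48.7 and 40.7 with SRPIN340, 59.8 and 60.6 with Endovion, 74.8 and 74.2 with THZ531, and 84.7 and 81.6 with the combination. Endovion, THZ531 and the combination did not overlap each other or the controls, in that rising order, and the SRPIN340 libraries enclosed the controls. The rise with the combination was 0.90 ± 0.29 on the log2 scale (adjusted p = 0.0387), and the value with THZ531 was 0.74 ± 0.29 (adjusted p = 0.105). The call with the combination was lost with DESeq2 (adjusted p = 0.0724), with the fit on the 2 groups alone (adjusted p = 0.062), when scaled by all reads (adjusted p = 0.0617), with no low-count filter (adjusted p = 0.0627) and without any 1 library of the control or the combination (adjusted p = 0.104 to 0.196). The counted interval of FIP1L1, of 219 bases, lies within one of LNX1 on the opposite strand. It held 574 to 1379 reads per library, against 33 to 76 in the whole LNX1 interval, so most of its reads were not counted for the opposite strand.

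CPSF1 and WDR33 encode the scaffold of CPSF and the subunit that binds the AAUAAA hexamer. CPSF1 was counted over an interval of 89 bases with 19 T positions, which yielded 2 to 6 T>C reads per library, so its nascent RNA and labelled share were not tested. Its total level was 11.2 to 15.8 CPM over the 10 libraries, and its log2 fold changes of -0.27 to 0.00 passed no test. Nascent WDR33 was 12.2 and 24.9 CPM in control cells, 36.5 and 35.1 with SRPIN340, 22.3 and 18.3 with Endovion, 13.02 and 18.3 with THZ531, and 29.7 and 23.6 with the combination. Both SRPIN340 libraries were above all others, but the controls were far apart and the log2 fold change of 0.96 ± 0.44 did not pass the test (adjusted p = 0.411).

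Total WDR33 was 22.1 and 23.7 CPM in control cells, 24.9 and 28.1 with SRPIN340, 30.5 and 31.8 with Endovion, 18.4 and 17.4 with THZ531, and 23.9 and 19.4 with the combination. Endovion lay above the controls and THZ531 below them, and neither difference from control was called (0.45 ± 0.15, adjusted p = 0.0683, and -0.36 ± 0.15, adjusted p = 0.0913). The difference between these 2 treatments was called, with THZ531 lower by -0.80 ± 0.15 (adjusted p = 0.00161). These gene sums hold intervals that changed in opposite directions, as given below.

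PCF11, the subunit of cleavage factor II that binds the tail of RNA polymerase II, gave the largest change of the list. The gene lies on the plus strand of chromosome 11 (hg38, chr11:83156988-83187451), and its reads were counted in 1 interval of 2557 bases at the gene's end. No other interval of PCF11 was counted. RNA that ended upstream of that interval would not enter these values, and a shift to such an end was not tested. The interval ends beyond the gene's main annotated transcript (Ensembl canonical), whose own end was not searched for a hexamer, and holds 900 bases of its exons. Neither AATAAA nor ATTAAA was found in the last 50 bases of that interval on the transcript strand, which says only that these letters are not in this window. Its last 30 bases are shown for that reason (chr11:83187422-83187451).
PCF11: gttgacctaagaacagctgagtatgggtgc

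Total PCF11 was 17.8 and 20.7 CPM in control cells (500 and 492 reads), 24.7 and 25.7 with SRPIN340, 27.9 and 27.3 with Endovion, 1.70 and 1.34 with THZ531 (46 and 25 reads), and 5.39 and 3.14 with the combination (123 and 60 reads). The 4 libraries with THZ531 were far below the other 6, and within them the combination was above THZ531 alone. PCF11 fell by 3.64 ± 0.25 on the log2 scale with THZ531 (12.5-fold, adjusted p = 8.15e-07) and by 2.16 ± 0.22 with the combination (4.47-fold, adjusted p = 1.84e-05). With SRPIN340 and Endovion the log2 fold change was 0.39 ± 0.20 (adjusted p = 0.3) and 0.52 ± 0.20 (adjusted p = 0.101), both libraries of each above both controls.

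Nascent PCF11 rested on few reads, with 16 and 39 T>C reads in the control libraries (10.3 and 31.3 CPM), 31 and 29 with SRPIN340 (21.0 and 18.2 CPM), 37 and 32 with Endovion (28.4 and 30.8 CPM), 2 and 1 with THZ531 (1.30 and 1.02 CPM), and 5 and 6 with the combination (4.24 and 5.90 CPM). The libraries with THZ531 were again below all others. The fitted log2 fold change was -4.00 ± 0.99 with THZ531 (adjusted p = 0.000437) and -2.01 ± 0.67 with the combination (adjusted p = 0.0396). Pooled over libraries, the 55 T>C reads of the controls against 3 with THZ531 gave a ratio of 16.5 once divided by the scaled library sizes, with an exact 95% interval of 5.36 to 82.5 that covers counting error only. The call with the combination was lost without control replicate 2 (-1.02, adjusted p = 0.564), without any 1 library of the combination or Endovion (adjusted p = 0.0584 to 0.268), with DESeq2 (adjusted p = 0.102) and with the fit on the 2 groups alone (adjusted p = 0.0855), and that with THZ531 held in every alternative run.

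PAPOLA encodes the main nuclear poly(A) polymerase. Total PAPOLA was 270.3 and 298 CPM in control cells, 273 and 285 with SRPIN340, 282 and 317 with Endovion, 285 and 302 with THZ531, and 317 and 325 with the combination. The combination libraries lay above both controls, and the other groups overlapped the control range. The log2 fold changes lay between -0.03 and 0.18 (SE of 0.10 to 0.11) and none passed the test. Nascent PAPOLA was 196 and 162 CPM in control cells, 158 and 182 with SRPIN340, 185 and 247 with Endovion, 202 and 225 with THZ531, and 253 and 243 with the combination. Both THZ531 and the combination lay above the controls without overlap, but no value was called, the highest being 0.47 ± 0.19 with the combination (adjusted p = 0.116).

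**Figure D2:**
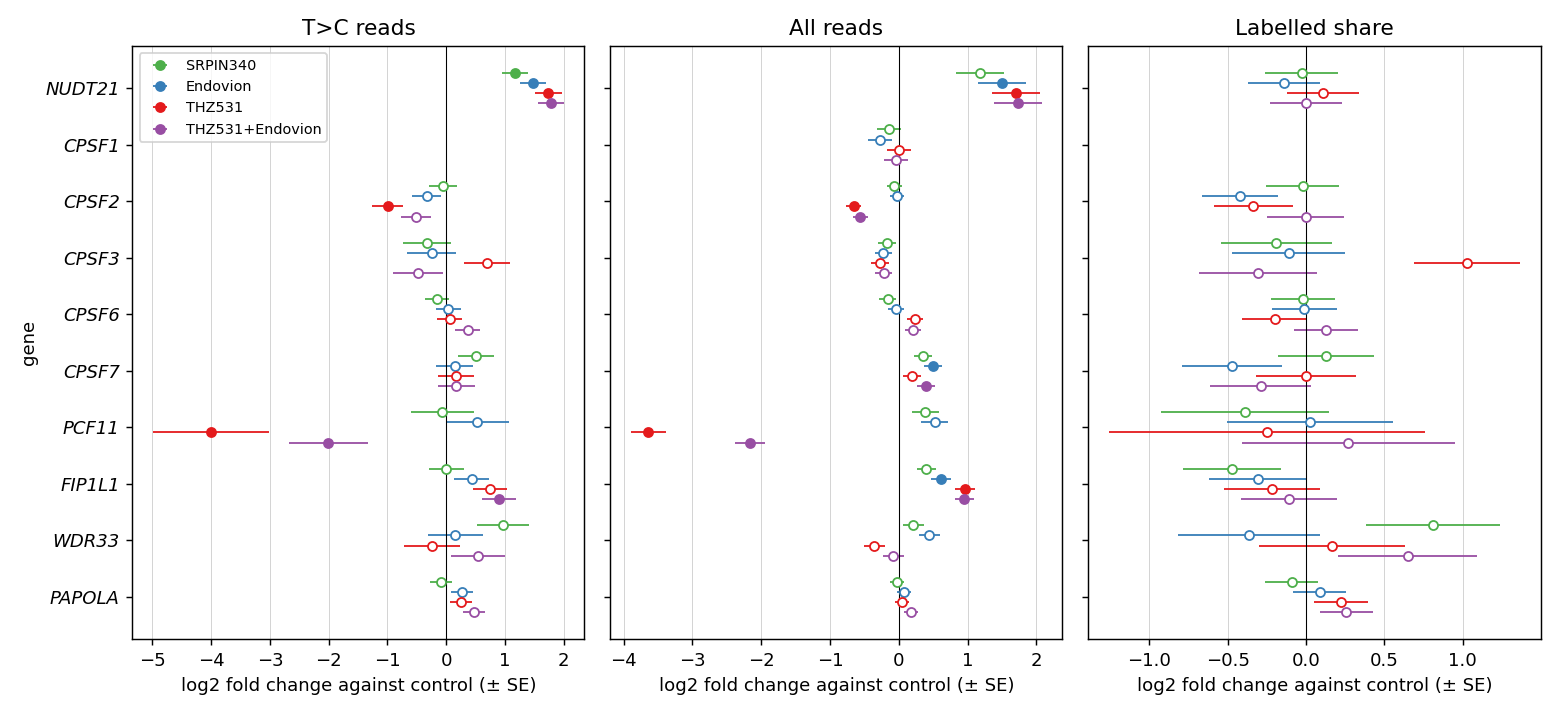
Log2 fold change over control with its SE, in 3 panels for nascent RNA, total RNA and labelled share, for each gene of the list that was tested and each of the 4 treatments (edgeR, n = 2 libraries per group). Filled points passed an adjusted p under 0.05 and open points did not, and no point of the labelled share is filled.

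The labelled share asks whether the T>C reads of a gene moved apart from its other reads. No gene of the list was called in any treatment (at an unadjusted p under 0.05, 0 with SRPIN340, Endovion and the combination, and 1 with THZ531), and of all genes 0.0603%, 0.271%, 0.0905% and 0.804% were called with SRPIN340, Endovion, THZ531 and the combination. The median log2 change of the 9 genes tested was -0.03, -0.14, -0.00 and 0.00, and that of all genes was -0.11, -0.19, -0.09 and -0.16. For NUDT21, whose reads rose in both classes, the share lay between 3.67% and 5.88% in the 10 libraries and the groups overlapped. CPSF3 had a share of 3.34% and 2.44% in control cells, 6.63% and 4.78% with THZ531 and 2.22% and 2.50% with the combination, so the THZ531 libraries stood above the others, but the log2 change of 1.03 ± 0.34 with THZ531 missed the threshold (adjusted p = 0.289). Counted instead as conversions per covered T, with no test, the log2 change of CPSF2 was -0.90 with Endovion, -0.99 with THZ531 and -0.64 with the combination, against -0.42, -0.33 and 0.00 as a share of reads. On that scale CPSF3 gave 0.93 with THZ531 and -0.73 with the combination (-0.30 as a share), PAPOLA -0.34 with SRPIN340 (-0.09 as a share) and -0.03 with the combination (0.26 as a share), and PCF11 -1.25 with THZ531 (-0.25 as a share).

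Of the 10 genes, 5 had 1 interval and 5 had more than 1, with 20 intervals in all. In CPSF6, CPSF7 and FIP1L1 a single interval held 99.5%, 99.8% and 99.7% of the reads, and in WDR33 and PAPOLA intervals that end inside introns held a measurable part. Interval 1 of WDR33 (hg38, chr2:127762533-127764472, minus strand) covers 98 bases of exon 7 and ends in intron 7 of the gene's 22-exon transcript, interval 2 (chr2:127735388-127738004) lies in the same intron, and interval 3 is the end of the gene. In PAPOLA (plus strand of chromosome 14), interval 1 (chr14:96531697-96532248) lies in intron 7, interval 2 (chr14:96532672-96534885) covers 73 bases of exon 10 and ends in intron 10, interval 3 (chr14:96537170-96537904) lies in intron 12, and interval 4 (chr14:96565051-96567111) is the last of 22 exons. Reads were counted over a whole interval and not at its end, so a read in an intronic interval does not by itself show that an mRNA ended there.

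The ends of 6 of these 7 intervals are printed because the results below turn on them. Each is read on the transcript strand, with the hexamer AATAAA or ATTAAA in capitals where one lay in the last 50 bases of the interval. The windows of WDR33 are chr2:127762533-127762562 and chr2:127735388-127735411, and those of PAPOLA are chr14:96532231-96532248, chr14:96534867-96534885, chr14:96537874-96537903 and chr14:96567086-96567111.
WDR33 interval 1: tggcattgctgcttgtttacttttgttgat
WDR33 interval 2: cttcaAATAAAacttattatgtat
PAPOLA interval 1: ttaccATTAAActtttga
PAPOLA interval 2: aaaaaAATAAAaggatact
PAPOLA interval 3: ccccaATTAAAaacaagaatgatgaccttc
PAPOLA interval 4: aacacAATAAAaaaaaaacagcacaa

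Interval 4 of PAPOLA, at the gene's end, carried AATAAA, as did interval 2 of each gene, and interval 1 of WDR33 was the one of these 6 with neither hexamer. The hexamer began 13 to 36 bases before the interval's end wherever one was found among the 10 genes. Over 24998 intervals of the genes tested, 42.4% held AATAAA, 13% held ATTAAA and 52.7% held either in the last 50 bases. TGTA, the DNA letters of the motif bound by cleavage factor I, was counted in the last 100 bases on the transcript strand. It occurred 4 times in interval 4 of PAPOLA, 2 times in interval 4 of CPSF7 and at most 1 time in every other interval of the 10 genes. Of all intervals, 14.3% held it at least 2 times. The 20 genomic bases after the end held 8 A in WDR33 interval 1 and 7 in PAPOLA interval 2, and 2.9% of all intervals had at least 12. These matches are a description of the letters and show no binding.

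Intronic reads of WDR33 rose with THZ531 while those of its last interval fell. Interval 1 held 12 and 22 reads in control cells (0.428 and 0.926 CPM), 9 and 27 with SRPIN340, 15 and 18 with Endovion, 180 and 116 with THZ531 (6.64 and 6.22 CPM), and 113 and 112 with the combination (4.96 and 5.86 CPM). Interval 3 held 593 and 531 reads in control cells (21.1 and 22.3 CPM), 300 and 189 with THZ531 (11.1 and 10.1 CPM), and 419 and 233 with the combination (18.4 and 12.2 CPM). In interval 1 the 4 libraries with THZ531 lay above all others, and in interval 3 they lay below.

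Tested as a level of its own, WDR33 interval 1 rose by 3.22 ± 0.44 on the log2 scale with THZ531 (adjusted p = 4.14e-05) and by 2.96 ± 0.44 with the combination (adjusted p = 0.000122), and interval 3 fell by 1.08 ± 0.19 (adjusted p = 0.000387) and by 0.55 ± 0.18 (adjusted p = 0.0322). Interval 2, with 4 to 26 reads per library, passed no test against control. Of the 16 intervals of the list that were tested for their total level, 6 rose and 3 fell with THZ531, where 15.4% of all 17459 intervals rose and 14.6% fell. The same numbers, 6 and 3, were called with the combination, against 14.9% and 12.9% of all intervals.

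The use of an interval, its log2 change less the average change of its gene, was tested with edgeR's diffSpliceDGE over 5001 intervals. With THZ531 4 of the 9 intervals tested gained in use and 1 lost, against 10.3% and 4.76% of all intervals, and with the combination 4 gained and 0 lost, against 6.86% and 2.38%. The 4 were interval 1 of WDR33 and intervals 1 to 3 of PAPOLA. With SRPIN340 and Endovion 0 of 9 were called (0 at an unadjusted p under 0.05), against 0.0400% and 1.44% of all intervals. WDR33 interval 1 gained 3.62 with THZ531 (adjusted p = 1.07e-07) and 3.09 with the combination (adjusted p = 2.98e-06), and both calls held when any 1 library was left out.

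WDR33 interval 3 lost 0.68 in use with THZ531 (log2 value of -0.68, adjusted p = 0.0279), a call that was lost without either control library, either Endovion library or either THZ531 library (adjusted p = 0.0522 to 0.158). As a share of the reads of the gene, intervals 1 and 2 of WDR33 held 4.51% (exact 95% interval 3.02% to 6.45%) and 5.68% (3.92% to 7.93%) in the controls, and 39.8% (35.4% to 44.2%) and 41.8% (36.4% to 47.4%) with THZ531. With the combination they held 23.3% (19.8% to 27.0%) and 37.2% (32.3% to 42.3%), and with SRPIN340 and Endovion between 2.10% and 4.19%. The combination libraries differed from each other beyond these intervals, which cover counting error only, and lay between the other groups and THZ531.

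Interval 3 of WDR33 overlaps an interval of SFT2D3 on the opposite strand by 3066 bases. WDR33 interval 3 held 189 to 847 reads and the SFT2D3 interval 95 to 332 reads per library. The SFT2D3 interval too held fewer reads with THZ531, with 156 and 95 against 264 and 233 in control cells. It held 180 and 143 with the combination, 307 and 326 with SRPIN340, and 332 and 241 with Endovion, all as unscaled counts. The strand setting of the counting is not given in the sources used here. At FIP1L1 most reads of the interval were counted apart from the opposite strand, and the part of SFT2D3 in the value of WDR33 interval 3 was not tested. Intervals 1 and 2 overlap no interval of another gene.

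**Figure D3:**
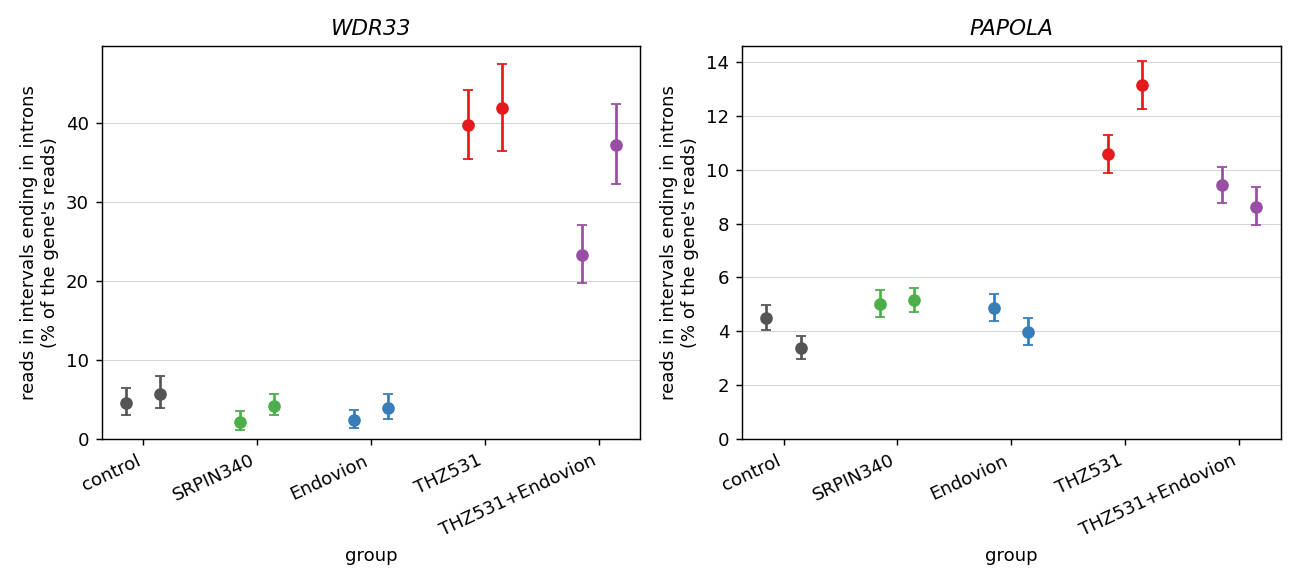
Percentage of the reads of WDR33 and PAPOLA that fell in intervals ending inside an intron, with 1 point per library and exact 95% intervals for counting error. The THZ531 libraries of WDR33 lie at 39.8% and 41.8% and those of PAPOLA at 10.6% and 13.1%, above all libraries without THZ531.

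In PAPOLA the 3 intronic intervals rose with THZ531 while the last exon did not pass the test. Interval 2 held 272 and 168 reads in control cells (9.70 and 7.07 CPM), 293 and 361 with SRPIN340 (10.96 and 11.5 CPM), 284 and 182 with Endovion (10.9 and 9.0 CPM), 640 and 561 with THZ531 (23.6 and 30.1 CPM), and 509 and 404 with the combination (22.3 and 21.1 CPM). The libraries with THZ531 were all above the others. The level of interval 2 rose by 1.63 ± 0.20 with THZ531 (adjusted p = 1.5e-05) and by 1.33 ± 0.20 with the combination (adjusted p = 0.000141).

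Interval 1 of PAPOLA rose from 2.07 and 2.02 CPM in control cells to 4.02 and 6.76 CPM with THZ531 (1.35 ± 0.31, adjusted p = 0.00409) and to 5.31 and 5.08 CPM with the combination (1.30 ± 0.32, adjusted p = 0.00597). Interval 3 rose from 10 and 23 reads to 67 and 54 with THZ531 (1.99 ± 0.50, adjusted p = 0.00663) and to 51 and 35 with the combination (1.59 ± 0.51, adjusted p = 0.0268). Interval 4, which held 93.3% of the reads of the gene, had log2 fold changes of -0.12 ± 0.11 and 0.05 ± 0.11. In all 3 intronic intervals the libraries with THZ531 lay above both controls.

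**Figure D4:**
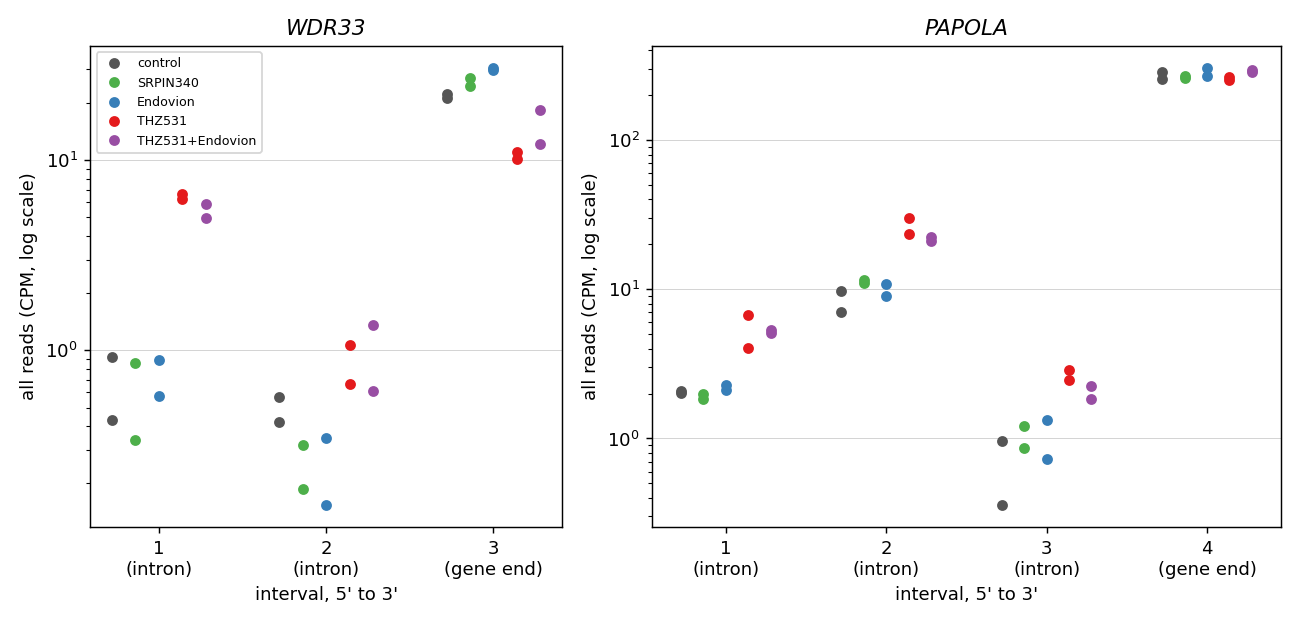
Total CPM of each interval of WDR33 and PAPOLA in the 10 libraries, on log axes, numbered in the direction of transcription, with the last number at the gene's end. Interval 1 of WDR33 lies at 6.22 and 6.64 CPM with THZ531 against 0.428 and 0.926 CPM in control cells, whereas the last intervals of both genes move less.

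In use, PAPOLA interval 2 gained 1.63 with THZ531 (adjusted p = 2.87e-07) and 1.20 with the combination (adjusted p = 0.000104), and both held when any 1 library was left out. Interval 1 gained 1.34 (adjusted p = 0.0028) and 1.17 (adjusted p = 0.0172), and interval 3 gained 1.98 (adjusted p = 0.00163) and 1.46 (adjusted p = 0.0435). Without THZ531 replicate 2, interval 1 gained 0.97 with THZ531 (adjusted p = 0.167), and without control replicate 1, interval 3 gained 1.48 (adjusted p = 0.088). With the combination, interval 1 lost its call without any 1 of the control or combination libraries (adjusted p = 0.0643 to 0.164), and interval 3 without 8 of the 10 libraries in turn, with a value of 0.96 (adjusted p = 0.447) without control replicate 1.

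The 3 intronic intervals of PAPOLA together held 4.48% and 3.38% of the reads of the gene in control cells, 5.01% and 5.15% with SRPIN340, 4.86% and 3.97% with Endovion, 10.6% (exact 95% interval 9.90% to 11.3%) and 13.1% (12.3% to 14.1%) with THZ531, and 9.43% and 8.63% with the combination. In each library a larger part of their reads carried a conversion than of the reads of the last exon. How much of this came from the label was not measured. In control cells 17.1% and 15.9% of the intronic reads had a conversion, against 3.41% and 2.40% in interval 4. With SRPIN340 it was 6.58% and 8.44% against 3.02% and 2.95%, with Endovion 13.4% and 15.3% against 2.76% and 3.54%, with THZ531 7.23% and 12.1% against 3.64% and 2.68%, and with the combination 11.6% and 11.9% against 3.36% and 3.22%. The labelled share of the intronic reads was thus below both controls in all 8 treated libraries, and lowest in SRPIN340 replicate 1, and these differences were not tested for the 3 intervals together. In WDR33 the intronic reads did not carry a conversion more often in the libraries with THZ531 beyond a small difference in 1 of them. With THZ531 alone 4.04% and 4.41% of its intronic reads had a conversion, against 4.0% and 6.35% in interval 3, and with the combination 4.72% and 5.07% against 6.92% and 7.30%. In the other 6 libraries its intronic intervals held only 0 to 10 T>C reads, in 14 to 37 reads per library.

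In T>C reads the use of 3 intervals of PAPOLA could be tested, and none was called with THZ531 or the combination, against 3.83% and 1.70% of 1175 intervals. With THZ531 the values were 0.72 for interval 1 (adjusted p = 0.81), 0.65 for interval 2 (adjusted p = 0.523) and -0.21 for interval 4 (adjusted p = 0.868). None of these 3 had an unadjusted p under 0.05. The change of use called in total reads was thus not detected among T>C reads at this depth, where interval 2 held 23 to 62 T>C reads in the control and THZ531 libraries. As levels of T>C reads, THZ531 differed from SRPIN340 in 1 of 11 intervals upward and 3 downward (1.62% and 2.74% of 10475 intervals), among them PAPOLA interval 2, which was higher by 1.53 (adjusted p = 0.0179), and WDR33 interval 3, which was lower by -1.73 (adjusted p = 0.0317).

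Comparisons between treatments ask whether the agents differ from each other. Between Endovion and SRPIN340, which were given at different doses, none of the 10 genes was called in nascent or total RNA (0 at an unadjusted p under 0.05), and 0.0603% and 0.0340% of all genes were. Differences in nascent RNA lay between -0.81 ± 0.44 for WDR33 and 0.59 ± 0.53 for PCF11, with 0.30 ± 0.21 for NUDT21, and those in total RNA between -0.12 ± 0.17 for CPSF1 and 0.32 ± 0.35 for NUDT21, so these errors leave room for differences of the size of several of the changes above. Between the combination and THZ531, none was called in nascent RNA (2 at an unadjusted p under 0.05; 0.322% of all genes were called) and PCF11 was called up in total RNA (0.327% of all genes were called up). Nascent differences lay between -1.17 ± 0.41 for CPSF3 and 1.998 ± 1.06 for PCF11, and total ones of the other 9 genes between -0.05 for CPSF1 and 0.28 for WDR33. Total PCF11 was higher with the combination by 1.48 ± 0.27 (2.79-fold, adjusted p = 0.0201), and without THZ531 replicate 2 the difference was 1.34 (adjusted p = 0.124) and without combination replicate 1 it was 1.02 (adjusted p = 0.335), and the plain sum of overlapping intervals ended the call too (adjusted p = 0.0743).

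Against Endovion, the combination had lower nascent PCF11 (-2.53 ± 0.67, adjusted p = 0.0252), the 1 gene called where 0.855% of all genes were called down, although this was lost without any 1 library of these 2 groups (adjusted p = 0.113 to 0.359), with DESeq2 (adjusted p = 0.0974) and with the plain sum (adjusted p = 0.275). The other 8 nascent differences lay between -0.23 for CPSF3 and 0.47 for FIP1L1. In total RNA 3 genes were lower, where 5.94% of all genes were, and these were PCF11 (-2.68 ± 0.22, adjusted p = 1.09e-05), CPSF2 (-0.54 ± 0.11, adjusted p = 0.00595) and WDR33 (-0.52 ± 0.15, adjusted p = 0.0453). The call of CPSF2 was lost without Endovion replicate 1 or combination replicate 1 (adjusted p = 0.0507 and 0.0505), and that of WDR33 without any 1 library of SRPIN340, Endovion or the combination (adjusted p = 0.0557 to 0.294), with RLE factors (adjusted p = 0.0506) and with the plain sum (adjusted p = 0.0887). The other 7 genes lay between -0.10 for CPSF7 and 0.34 for FIP1L1.

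THZ531 had lower nascent PCF11 and CPSF2 than SRPIN340 (-3.94 ± 0.99, adjusted p = 0.000893, and -0.94 ± 0.26, adjusted p = 0.0212), where 2.60% of all genes were called down, and the value of CPSF2 was lost without either SRPIN340 library or THZ531 replicate 2 (adjusted p = 0.0893 to 0.264). The plain sum ended both calls (adjusted p = 0.0529 for PCF11 and 0.156 for CPSF2), and the other 7 genes lay between -1.21 for WDR33 and 1.02 for CPSF3. THZ531 had lower nascent PCF11 than Endovion (-4.53 ± 0.98, adjusted p = 8.08e-05), where 2.68% were, and the other 8 genes lay between -0.67 for CPSF2 and 0.94 for CPSF3. In total RNA 2 genes were higher and 3 lower with THZ531 than with SRPIN340, where 7.04% and 12% of all genes were. The higher ones were FIP1L1 (0.56 ± 0.14, adjusted p = 0.0107) and CPSF6, and the lower ones were PCF11 (-4.03 ± 0.25), CPSF2 (-0.59 ± 0.11) and WDR33 (-0.57 ± 0.15, adjusted p = 0.0163), while the other 5 lay between -0.16 for CPSF7 and 0.53 for NUDT21, which was called without THZ531 replicate 1 (0.91, adjusted p = 0.0297). The call of FIP1L1 was lost without either SRPIN340 library or THZ531 replicate 2 (adjusted p = 0.0756 to 0.0898), and that of WDR33 without SRPIN340 replicate 2 or THZ531 replicate 2 (adjusted p = 0.148 and 0.0967). Against Endovion, 3 genes were lower with THZ531, PCF11 (-4.16 ± 0.25), CPSF2 (-0.63 ± 0.11) and WDR33 (-0.80 ± 0.15), where 11.8% of all genes were, and the other 7 lay between -0.31 for CPSF7 and 0.35 for FIP1L1.

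A second list held 20 other genes of 3′ end processing, among them the cleavage stimulation factor, another poly(A) polymerase and poly(A)-binding proteins. Of the 20, 19 were tested. In nascent RNA 1 rose with SRPIN340 (0.845% of all genes rose) and 1 with Endovion (2.04%), 3 rose and 1 fell with THZ531 (3.86% and 3.60%), and 1 rose and 1 fell with the combination (4.61% and 3.51%). PABPC1, the cytoplasmic poly(A)-binding protein, rose in all 4 treatments, from 253 and 191 CPM in control cells to between 385 and 499.6 CPM in the 8 treated libraries, with log2 fold changes of 0.88, 0.99, 0.87 and 1.12 (adjusted p of at most 0.000804). CPSF4, a further CPSF subunit that contacts the hexamer, fell by 0.68 with THZ531 (adjusted p = 0.0174) and by 0.76 with the combination (adjusted p = 0.00686). RBBP6, which activates the cleavage machinery, rose by 1.16 ± 0.31 with THZ531 (adjusted p = 0.012). PAPOLG, a second nuclear poly(A) polymerase, rose by 1.69 ± 0.50 (adjusted p = 0.0235). This rise rested on 74 and 27 T>C reads with THZ531, against 17 and 16 in control cells. The gene sum of RBBP6 holds intervals that moved apart. In total reads its interval near the gene's end changed in use by -2.93 with THZ531 (diffSpliceDGE, adjusted p = 1.07e-07). Its upstream interval gained 0.95 (adjusted p = 0.0107). Of 10 intervals of 5 genes of this list tested for use, 3 gained and 3 lost with THZ531 (10.3% and 4.76% of all intervals). In total RNA 2 of the 19 rose with SRPIN340, 4 with Endovion, 8 with THZ531 and 7 with the combination, where 1.82%, 8.90%, 16.6% and 16.6% of all genes rose, and 0, 0, 4 and 4 fell, where 0.143%, 2.54%, 14.1% and 12.4% did. In labelled share none of the 19 was called in any treatment (3 to 5 at an unadjusted p under 0.05). The alternative runs, such as leaving out a library, were not made for this second list.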

How the data were processed

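SLAM-seq of 22RV1 cells was analysed in 10 libraries, 2 for each of 5 groups that follow the treatment in the labels. The authors made 3′ end libraries with QuantSeq, sequenced them as single-end reads, and counted conversions with SLAM-DUNK on hg38, whose version and settings are not given in the sources used here. The deposited tables hold, for each 3′ UTR interval, raw counts of reads, of reads with a conversion, of conversions and of the T positions covered. The conversion rate in the same tables, a fraction deposited by the authors, was not tested. The deposited CPM column, treated as a score because overlapping intervals enter it repeatedly, was used only to recover the number of mapped reads. The submitters' processing notes also name Bowtie2 2.3.4.1, SAMtools 1.6 and DESeq2 1.38.2. Whether the molecular identifiers in the libraries were used to collapse reads is not given in the sources used here.

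Each table lists 104653 intervals, of which 92826 matched a gene through their transcript. Because intervals of 1 gene overlap, a plain sum would count reads again. Over all genes, 48.8% of the T>C reads in such a sum lay in the overlapping intervals that were dropped. Of overlapping intervals the one with most reads was kept, which left 57531 intervals and 31015 genes, and 3.53% of T>C reads had no gene. The test of counts was that of edgeR 4.0.16 (R 4.3.3), by a robust quasi-likelihood fit with group as the only factor and all 10 libraries in it, after TMM scaling and filterByExpr, with Benjamini-Hochberg adjustment over all 9946 genes (nascent RNA and labelled share) or 14689 genes (total RNA). CPM values carry the TMM scaling. The SE of a log2 fold change is the Wald SE of that fit. The labelled share was tested as the interaction of group with read class, with the library as a block. The use of an interval was tested with diffSpliceDGE. The procedure was tested on simulated data. Alternatives were DESeq2 1.42.0, a fit on 2 groups, RLE factors, scaling by all reads, no low-count filter, the plain sum, a replicate block and leaving out each library.

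All 10 genes of the list entered every comparison. Against control each is named, and between treatments the genes called and those at the ends of the range of the others. Of the 20 other genes of 3′ end processing, at most 8 that passed in nascent RNA or labelled share are named. Both lists were chosen with earlier results of these data known. Sequences were read from hg38, whose T content equalled that of 24998 of 24998 intervals. Exact intervals of shares are Clopper-Pearson intervals at 95% and cover counting error only. The pair of SRPIN340 with THZ531 was not analysed here. Some marker genes and 1 interval's end sequence are not reported here.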

Additional observations from a re-analysis of the deposited data

Results flagged for a closer look

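The effect of THZ531 on nascent NUDT21 differed with and without Endovion in the main fit, but not in every alternative. The interaction of both agents was -1.43 on the log2 scale (edgeR, adjusted p = 0.0186), because the level with the combination (210.1 and 188 CPM) was close to that with THZ531 alone (162 and 228 CPM) and with Endovion alone (141 and 182 CPM), while each agent alone was above control (62.4 and 53.0 CPM). The call was lost with the plain sum of overlapping intervals (-1.44, adjusted p = 0.418). It was also lost without control replicate 2 (-1.32), without THZ531 replicate 2 (-1.18) and without any 1 library of Endovion or the combination. In total RNA and labelled share the interaction of NUDT21 was not called (adjusted p = 0.322 and 0.993). No other gene of the list passed the test of this difference in nascent RNA, total RNA or labelled share.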

How the results depend on the processing

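Of 262 results on the 10 genes and their intervals, 46 were called. Of the 720 values that alternatives gave for these, 602 kept direction and call, 118 kept the direction and lost the call, and none changed direction. The number of genes called in nascent RNA with SRPIN340 was 1 and became 0 with the plain sum of overlapping intervals, and 0 to 1 when any 1 library was left out. With the combination it was 3 and became 1 with DESeq2, 1 with the fit on the 2 groups alone, and 1 to 3 when any 1 library was left out. In total RNA the number with SRPIN340 was 0 and became 1 with DESeq2 and 0 to 2 when any 1 library was left out, that with Endovion was 3 and ranged from 0 to 3, and that with the combination was 5 and ranged from 3 to 5. The number of intervals that changed in use with THZ531 was 5 and became 3 with at least 10 reads required in every library, 0 in T>C reads, where 3 intervals could be tested, and 3 to 5 when any 1 library was left out. With the combination it was 4, became 0 in T>C reads, and ranged from 2 to 4. Beside the losses given with each result, the plain sum ended the nascent calls of NUDT21 with SRPIN340 (adjusted p = 0.156), of CPSF2 with THZ531 (adjusted p = 0.0837) and of PCF11 with the combination (adjusted p = 0.139), and the interaction of NUDT21 (adjusted p = 0.418). The fit on the 2 groups alone ended the total calls of CPSF7 with Endovion (adjusted p = 0.0594) and of NUDT21 with THZ531 (adjusted p = 0.0628). RLE factors and no low-count filter ended the total call of NUDT21 with Endovion (adjusted p = 0.0511 and 0.0924). The cause of these differences was not tested. The replicate numbers showed no strong pairing of the libraries. The deviations of same-numbered libraries from their group means correlated between -0.13 and 0.17 in total RNA, which cannot exclude a weak pairing. With the replicate block the number called in nascent RNA was 2 with the combination, against 3 without it, and in total RNA 2 with Endovion, against 3. The block ended the nascent call of PCF11 with the combination (adjusted p = 0.0502) and the total calls of NUDT21 with Endovion (adjusted p = 0.0653) and of WDR33 between the combination and Endovion (adjusted p = 0.0569), and changed no other call. With the block and the control numbers crossed, an alternative added after seeing the data because the deviations of control and THZ531 correlated below -0.1, the number called in total RNA was 1 with SRPIN340, 4 with Endovion, 4 with THZ531 and 5 with the combination. Depth limits nascent values most for CPSF1 (2 to 6 T>C reads per library) and PCF11 (1 to 39), and 2 libraries per group leave 5 residual degrees of freedom.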
